A study of Sus scrofa with 23 samples.

Results

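Backfat, the subcutaneous fat of the pig's back, was compared between pigs of group IV (+cDDGS+coconut oil) and pigs of the control group I (-cDDGS+rapeseed oil). Members were chosen by the diet in the sample labels, which gave 12 of the 23 sequenced pigs, 7 in group I (4 females and 3 males) and 5 in group IV (3 females and 2 males). Group I was fed a mixture without cDDGS (corn dried distillers grains with solubles, what remains of maize after alcohol production) and with rapeseed oil. Group IV was fed a mixture with cDDGS and with coconut oil, a fat rich in saturated fatty acids. All were crossbred fatteners kept singly under the same conditions on diets of equal energy and nitrogen, and the RNA of all of them was partly degraded. Both cDDGS and the fat source differ between the groups, and the study reports more crude fat and fibre and less starch in the group IV mixture. The parts of these in any difference cannot be told apart in this comparison. Each library came from 1 animal, so the errors given below are those between animals. Pig 53 of group IV differed from the other group IV pigs at genes chosen for the group difference, and results are given with and without it.

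In adipocytes, excess glucose is turned into citrate and then, by ACLY, ACACA, FASN and SCD, into fatty acids, which are esterified and stored in lipid droplets. Lipases release them again, and mitochondria burn a part of them. Between the adipocytes lie vessels, a collagen matrix, macrophages, mast cells and other leukocytes, so RNA of whole backfat holds transcripts of all of these, and fewer cells of a type and less RNA per cell cannot be told apart.

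Gene counts summed to 3006222 to 5261962 in the control pigs and to 3697673 to 4865260 in group IV, so a gene at 1 count per 1e6 rests on only a few reads. Adipocyte markers were present in every pig, with a summed level of 2795 to 3925 CPM (counts per 1e6 after TMM normalization) in group I and 2614 to 3014 in group IV. Some reads had a single mapping place that lay in no gene of the annotation, and these are named reads outside genes. As a share of all reads with a single mapping place they were 56.8 ± 2.53% (SD, n = 7) in the controls and 63.0 ± 5.05% (SD, n = 5) with coconut oil and cDDGS. This share was higher in group IV by an exact two-sided permutation test over 792 regroupings (*p* = 0.00884, 0.0442 after adjustment over 5 library measures). In group I it ran from 53.2 to 60.1%. In group IV it was 62.8% in pig 49, 61.9% in pig 52, 57.7% in pig 53, 71.3% in pig 54 and 61.2% in pig 55, so that only pig 53 lay within the range of group I. The share of reads outside genes therefore moved with the diet groups and with pig 53, and its part in the gene differences below was not tested beyond a fit that holds it as a covariate. The most abundant identifier, ENSSSCG00000018063, took 27.2 to 37.1% of gene counts in group I and 20.9 to 29.3% in group IV, with pig 53 the lowest. Reads with more than 1 mapping place had mean shares of 25.1% in group I and 22.7% in group IV. By the same permutation test these measures had *p* = 0.035 and 0.047 (0.0779 for both after adjustment). No pair of pigs of the same group differed by as little as sampling noise (smallest chi-square per degree of freedom 8.82 over 31 pairs).

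With all 12 pigs, edgeR found no DEG (adjusted *p*-value under 0.05 and fold change above 1.3) among 10388 genes tested (0%), and the smallest adjusted *p*-value was 0.135. At an unadjusted *p* under 0.05, 854 genes (8.22% of those tested) were higher and 621 (5.98%) were lower in group IV. Counts of list members with all 12 pigs and no covariate, given below at this threshold, are to be read beside these shares. Counts from a fit with a covariate or with a pig left out are to be read beside the shares of that fit, given in the next paragraph. DESeq2 called 154 DEGs on the same pigs, 113 higher (0.629% of 17951 genes) and 41 lower (0.228%), and limma-voom called 0. The pigs of group IV lay above every pig of group I for 44 genes (0.424%) and below every one for 49 (0.472%). The median log2 fold change over all genes tested was -0.01.

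Without pig 53, edgeR called 116 DEGs among 10438 genes, of which 83 were higher (0.795%) and 33 were lower in group IV (0.316%), and the smallest adjusted *p*-value was 0.00782. Genes at an unadjusted *p* under 0.05 then numbered 1065 higher (10.2%) and 891 lower (8.54%). Leaving out any other pig of either group gave 0 DEGs. With the share of reads outside genes as covariate there were 0 DEGs, with 315 genes higher (3.03%) and 216 lower (2.08%) at an unadjusted *p* under 0.05. Together these were 531 genes, near the 519 that chance alone gives at this threshold. With this covariate and without pig 53 there were also 0 DEGs, and 627 genes passed that threshold where chance alone gives 522.

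**Figure D1:**
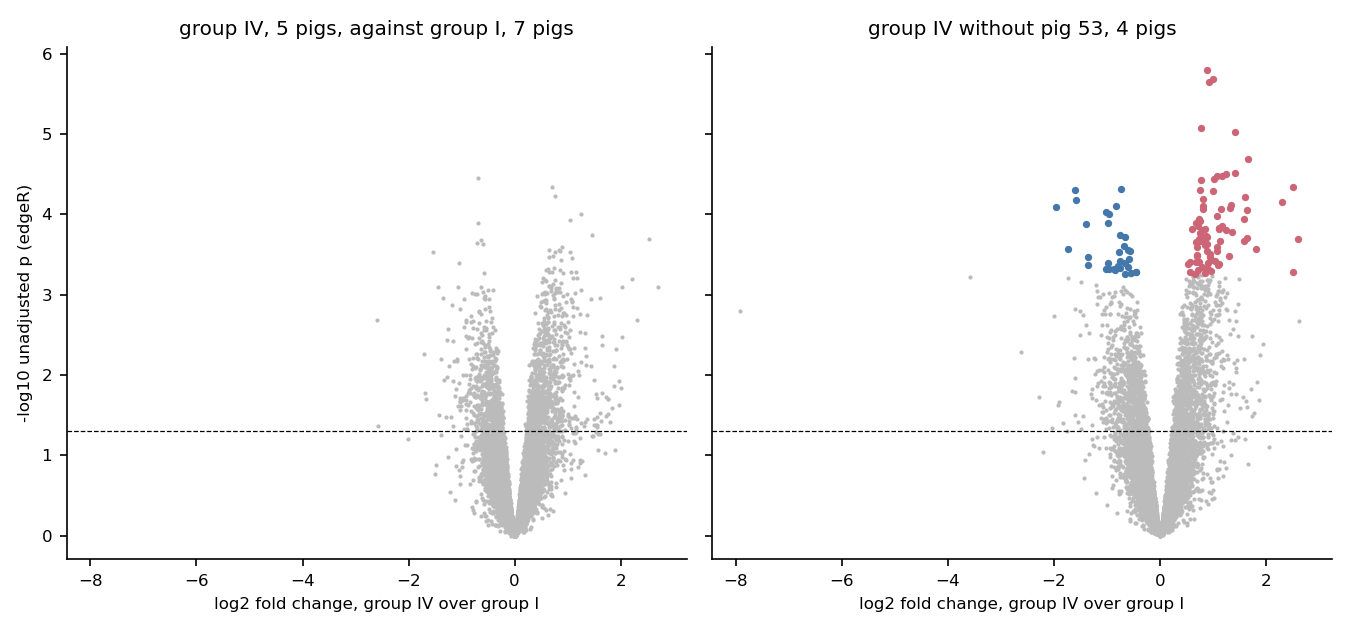
Log2 fold change of group IV over group I (x axis) against -log10 of the unadjusted edgeR *p* (y axis) for the 10388 genes tested with all 12 pigs, with pig 53 (left) and without it (right). Grey points are genes that are no DEG, red and blue points are DEGs higher and lower in group IV, and the dashed line marks the unadjusted threshold. The left panel holds no DEG and the right panel 114 (81 higher and 33 lower), with 2 more in genes that were not tested with pig 53.

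How far each group IV pig shared the difference was described with genes that it had not helped to choose. For each pig, the 50 genes with the smallest *p* in each direction were taken from the fit without it. Pigs 49, 52, 54 and 55 lay on the same side of the group I mean for 41 to 50 of the 50 higher genes and for 44 to 49 of the 50 lower genes. Pig 53 lay on that side for 26 of 50 and 29 of 50. Its median difference from the group I mean was 0.02 on the log2(CPM + 0.5) scale for the higher genes and -0.03 for the lower ones, beside 1.00 and -0.82 in the other 4 group IV pigs, whose values had chosen these genes. Of the 83 DEGs called higher without pig 53, that pig lay within the range of group I for 65, and of the 33 called lower for 18. Over the 500 most variable genes, which were not chosen for the group difference, pig 53 did not stand apart on the first principal component (29.8% of the variance). It lay at -16.3, beside -15.8 for pig 55 and -10.5 for pig 49. Pigs 52 and 54 lay at 19.3 and 16.1 and the controls from -21.6 to 24.6. On this axis the females of group IV (pigs 49, 53 and 55) lay low and its males high. In group I the sexes overlapped, with female pig 1 at 5.79 and male pig 2 at 2.70. Pigs 8, 52 and 54, the highest on the axis, had summed skeletal muscle markers of 1906, 1381 and 392 CPM, while pig 1 had 1465 CPM. What the axis follows was not tested. The diet groups overlapped on it, so it cannot show whether pig 53 is typical of its diet group.

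**Figure D2:**
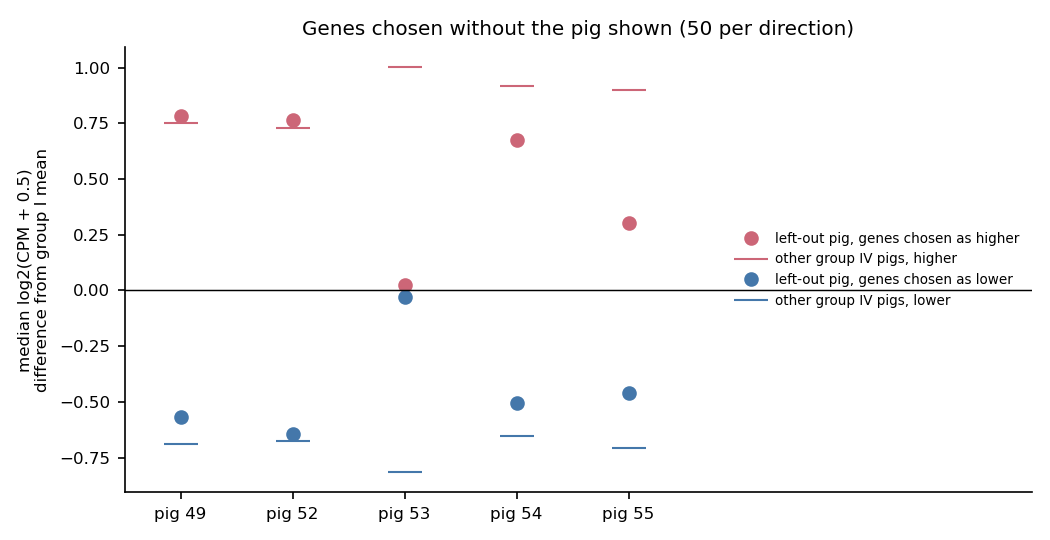
Median difference from the group I mean on the log2(CPM + 0.5) scale (y axis) of each group IV pig (x axis) over 50 genes chosen as higher (red) and 50 chosen as lower (blue) in the fit without that pig. Points are the left-out pig and dashes are the other 4 pigs, which chose the genes. Points of pig 53 lie at 0.02 and -0.03, nearer to 0 than those of any other pig.

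Genes of fatty acid synthesis were on the whole lower in group IV, with no DEG among them in edgeR and 1, SLC25A1, in DESeq2 (adjusted *p* = 0.0289). Of 12 tested members, 0 were higher and 4 were lower at an unadjusted *p* under 0.05, beside 8.22% and 5.98% of all genes. The 4 were SLC25A1, ME1 and both identifiers of FASN, and the median log2 fold change of the 12 was -0.49. SLC25A1, which carries citrate out of mitochondria, ranged from 50 to 143 CPM in group I with a median of 89.7. It stood at 36.5, 67.1, 56.5, 40 and 51.8 CPM in pigs 49, 52, 53, 54 and 55. The groups overlapped, with the group IV pigs at the low end, and the log2 fold change was -0.91 ± 0.25 (SE, edgeR, adjusted *p* = 0.155).

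FASN, the fatty acid synthase itself, is split over a pair of identifiers. At ENSSSCG00000023044 it measured 2864 ± 883 CPM (SD, n = 7) in group I and 1739 ± 341 CPM (SD, n = 5) in group IV, and at ENSSSCG00000029944 7056 ± 2338 and 4522 ± 802 CPM. The log2 fold changes were -0.71 ± 0.22 (SE) and -0.63 ± 0.24 (edgeR adjusted *p* = 0.196 and 0.255). ME1, which supplies NADPH, measured 1243 ± 514 against 724 ± 241 CPM, a log2 fold change of -0.77 ± 0.29 (adjusted *p* = 0.253). ACACA, the rate-limiting carboxylase, ACLY, which makes cytosolic acetyl-CoA, and SCD, the desaturase, had log2 fold changes of -0.56 ± 0.29, -0.54 ± 0.44 and -0.30 ± 0.25 with wide overlap of the pigs (adjusted *p* = 0.391, 0.607 and 0.606), and each was above 0 when the share of reads outside genes was a covariate. Without pig 53, 6 of 12 members, FASN again at both identifiers, were lower at an unadjusted *p* under 0.05 (8.54% of all genes). With the covariate, 0 were lower and 1, FADS1, was higher, and the median was -0.06. Of these members, 1 (SLC25A1) was also on the list of DEGs that the study chose on these same pigs. Among the other 11, 3 were lower (ME1 and the pair of FASN identifiers), and the median of the 11 was -0.43.

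The sterol and ketone body list behaved alike. Of 12 tested members 0 were higher and 5 were lower, AACS, HMGCS1 and FDPS among them, with a median log2 fold change of -0.33, and no member was on the study's list. AACS, which activates acetoacetate for lipid synthesis, measured 209 ± 36.3 CPM in group I and 148 ± 28.5 CPM in group IV (log2 fold change -0.49 ± 0.15, edgeR adjusted *p* = 0.179). HMGCS1, at the start of the mevalonate pathway, ranged from 48.1 to 76.2 CPM in group I with a median of 60.9. In pigs 49, 52, 53, 54 and 55 it was 34.2, 50.6, 59.7, 35.1 and 49.4 CPM, so that pig 53 stood closest to the control median. The log2 fold change was -0.44 ± 0.16 with pig 53 and -0.56 without it (edgeR adjusted *p* = 0.23 and 0.0835). The count of lower members was 5 without pig 53 and 0 with the share of reads outside genes as covariate.

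Of 13 tested genes of triglyceride storage and lipolysis, 0 were higher and 7 were lower at an unadjusted *p* under 0.05, with a median log2 fold change of -0.36. The 7 included enzymes of both storage and release. MOGAT2, a monoacylglycerol acyltransferase, had the largest fold change of the list and the least even spread. It ran from 2.71 to 54.5 CPM in group I with a median of 29, and stood at 3, 3.1, 4.32, 3.03 and 6.24 CPM in the group IV pigs. The lowest control pigs were thus as low as group IV, and the log2 fold change of -2.59 ± 0.70 had an adjusted *p* of 0.155 (edgeR).

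FITM2, which shapes lipid droplets, measured 62.7 ± 7.97 against 44.2 ± 11.1 CPM (log2 fold change -0.49 ± 0.16, edgeR adjusted *p* = 0.197). LIPE, the hormone-sensitive lipase, measured 662 ± 112 against 459 ± 123 CPM (-0.52 ± 0.17, adjusted *p* = 0.199). PNPLA2, the first lipase of triglyceride breakdown, DGAT1, which makes triglyceride, and the droplet proteins PLIN4 and CIDEC had log2 fold changes of -0.36, -0.35, -0.74 and -0.38. Without pig 53, 4 of the 13 were lower, and with the covariate 1, MOGAT2. None of these members was on the study's list. As markers of adipocytes, 3 of 8 genes were lower (LIPE, PLIN4 and CIDEC) and 0 were higher.

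Of 15 fatty acid oxidation genes 1 was higher and 1 was lower, shares near the 8.22% and 5.98% of all genes, and the median log2 fold change was -0.02. The lower gene was UCP2, an uncoupling protein of the inner mitochondrial membrane. It ranged from 3.85 to 16.3 CPM with a median of 12.7 in group I and was 2.75, 5.42, 4.64, 3.63 and 4.56 CPM in the group IV pigs (log2 fold change -1.35 ± 0.34, edgeR adjusted *p* = 0.135). One control pig lay among the group IV pigs, a second was level with the highest of them at 5.43 CPM, and the other 5 were above. CPT1A, which admits fatty acids to mitochondria, was higher at 54.6 ± 3.84 CPM against 40.1 ± 12.6 CPM (0.45 ± 0.19, adjusted *p* = 0.303).

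In glucose use, 4 of 14 tested genes were lower (UGP2, GAPDH, PDHX and GYS1), 1 was higher (FBP2), and the median log2 fold change was -0.24. Without pig 53, 6 were lower and the median was -0.36, and with the share of reads outside genes as covariate 2 were lower, UGP2 and GAPDH, and the median was -0.03. UGP2, which makes UDP-glucose for glycogen, ranged from 41.6 to 56.9 CPM in group I with a median of 51.9. In group IV it was 28, 29.2, 36.6, 29.7 and 34.8 CPM, so the groups did not overlap. Its log2 fold change was -0.60 ± 0.13 (edgeR adjusted *p* = 0.135), and in the fit without pig 53 UGP2 fell by 0.66 (adjusted *p* = 0.037). GAPDH, a glycolytic enzyme, measured 252 ± 60.7 and 143 ± 39.8 CPM, with pig 53 the highest of group IV at 207 CPM. GAPDH fell by 0.98 on the log2 scale without pig 53 (adjusted *p* = 0.0351) and had -0.80 ± 0.20 with it (adjusted *p* = 0.135). FBP2, a fructose bisphosphatase of muscle type, stood at 17.1 to 29.3 CPM in group I and at 29.4 to 37.5 CPM in group IV (0.58 ± 0.14, adjusted *p* = 0.135). Of these members 3 were on the study's list. Among the other 11, 0 were higher and 2 were lower.

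Nuclear genes of the respiratory chain were lower in 7 of 29 cases and higher in 0, with a median log2 fold change of -0.28, while the 13 mitochondrially encoded genes gave 0 lower, 1 higher (ATP8) and a median of 0.07. Without pig 53, whose summed level of the latter genes was the lowest of the 12 pigs, 2 were higher (ATP8 and ND3) and the median was 0.22. COX8A, a subunit of cytochrome c oxidase, ranged from 15.2 to 24.4 CPM in group I with a median of 17.8 and stood at 12.5, 11.9, 11.2, 14.5 and 10.8 CPM in group IV. The groups did not overlap (log2 fold change -0.59 ± 0.14, edgeR adjusted *p* = 0.135). UQCRQ and UQCRFS1 of complex III had log2 fold changes of -0.64 ± 0.18 and -0.39 ± 0.17, and NDUFS5 and NDUFB8 of complex I had -0.87 ± 0.27 and -0.52 ± 0.18 (adjusted *p* between 0.166 and 0.313 for these 4 genes). Pig 53 was no exception for COX8A. Without it 11 of 29 nuclear genes were lower and none was a DEG in edgeR, while DESeq2 called COX8A with all pigs (adjusted *p* = 0.035), and with the share of reads outside genes as covariate 1 was lower, COX8A, and the median was -0.02. Among the 28 members not on the study's list, 6 were lower.

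Of the antioxidant enzymes, 1 of 13 was lower and 1 was higher, both superoxide dismutases, shares near the 5.98% and 8.22% of all genes. SOD2, the mitochondrial form, measured 248 ± 62.4 and 150 ± 23.1 CPM (log2 fold change -0.71 ± 0.18, edgeR adjusted *p* = 0.135). SOD3, the secreted form, ranged from 24.4 to 36.4 CPM in group I and was 56.9, 61.4, 50.2 and 52.3 CPM in pigs 49, 52, 54 and 55, but 21.4 CPM in pig 53, below every control pig. With pig 53 its log2 fold change was 0.74 ± 0.20 (adjusted *p* = 0.155), and without it SOD3 rose by 0.93 (adjusted *p* = 0.00782).

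Collagen and matrix genes were lower in 7 of 27 cases and higher in 1 (SPARCL1), with a median log2 fold change of -0.27. COL15A1, a collagen of basement membranes, carried the smallest *p* of all genes tested. At ENSSSCG00000029421 it ranged from 55.2 to 84.1 CPM in group I with a median of 74.5 and was 43.5, 44.6, 49, 38.4 and 43 CPM in the group IV pigs. All 5 lay below every control pig, pig 53 included (exact permutation *p* = 0.00126, the smallest that 792 regroupings can give). Over all genes tested, 49 (0.472%) lay below every control pig in this way. The gene was picked for its *p* in these same pigs, so its permutation *p*, unadjusted for that choice, is a description only. The log2 fold change was -0.70 ± 0.12 (edgeR adjusted *p* = 0.135 with pig 53 and 0.0299 without it). A second identifier with the same symbol, ENSSSCG00000005380, did not share this difference, with 68.8 ± 12.1 and 65.5 ± 6.85 CPM and a log2 fold change of -0.06 ± 0.13 (adjusted *p* = 0.871).

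COL27A1, a fibrillar collagen, measured 14.8 ± 6.72 and 4.95 ± 1.77 CPM without overlap of the pigs (log2 fold change -1.54 ± 0.33, edgeR adjusted *p* = 0.135). It fell by 1.74 without pig 53 (adjusted *p* = 0.0401). NTN1, a laminin-related guidance protein, ranged from 5.43 to 12 CPM in group I and was 1.75, 3.1, 2.42 and 2.64 CPM in pigs 49, 52, 54 and 55, beside 6.08 CPM in pig 53. NTN1 was a DEG in the fit without pig 53 (edgeR adjusted *p* = 0.0299) and had a log2 fold change of -1.17 ± 0.30 with it (adjusted *p* = 0.143). SERPINH1, the collagen chaperone, showed the same order, with pig 53 at 149 CPM near the group I median of 155 CPM and the other 4 between 49.3 and 97.5 CPM. SERPINH1 fell by 0.95 without pig 53 (adjusted *p* = 0.032) and was no DEG with it. SDC4, a syndecan of the cell surface, measured 39.1 ± 15.6 and 19.9 ± 3.22 CPM (log2 fold change -0.95 ± 0.27, adjusted *p* = 0.162). SPARCL1, a secreted matrix protein, went the other way. It was 602, 576, 682 and 336 CPM in pigs 49, 52, 54 and 55 and 191 CPM in pig 53, beside a control range of 181 to 421 CPM. SPARCL1 rose by 0.96 without pig 53 (adjusted *p* = 0.0486) and was no DEG with it.

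Without pig 53, 13 of 27 matrix genes were lower at an unadjusted *p* under 0.05 and 4 of them were DEGs, and with the share of reads outside genes as covariate 2 were lower, COL15A1 and COL27A1. Among the 23 members not on the study's list, 3 were lower and 1 was higher. The summed level of 7 fibroblast markers ran from 8648 to 15477 CPM in group I and from 6778 to 12738 CPM in group IV, with 1 of 7 lower (LUM) and pig 53 at 12218 CPM. Among 9 tested markers of pericytes and smooth muscle 2 were lower. Of the 9, 1 was on the study's list, and among the other 8, 1 was lower. PDGFRB, the pericyte growth factor receptor, measured 52.4 ± 11 and 34.9 ± 2.58 CPM at ENSSSCG00000014442 (log2 fold change -0.58 ± 0.14, edgeR adjusted *p* = 0.135), and its second identifier ENSSSCG00000022741 had -0.07 ± 0.17. CSPG4 had -0.88 ± 0.26 (adjusted *p* = 0.171). The part of cell numbers in the matrix differences was not tested.

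**Figure D3:**
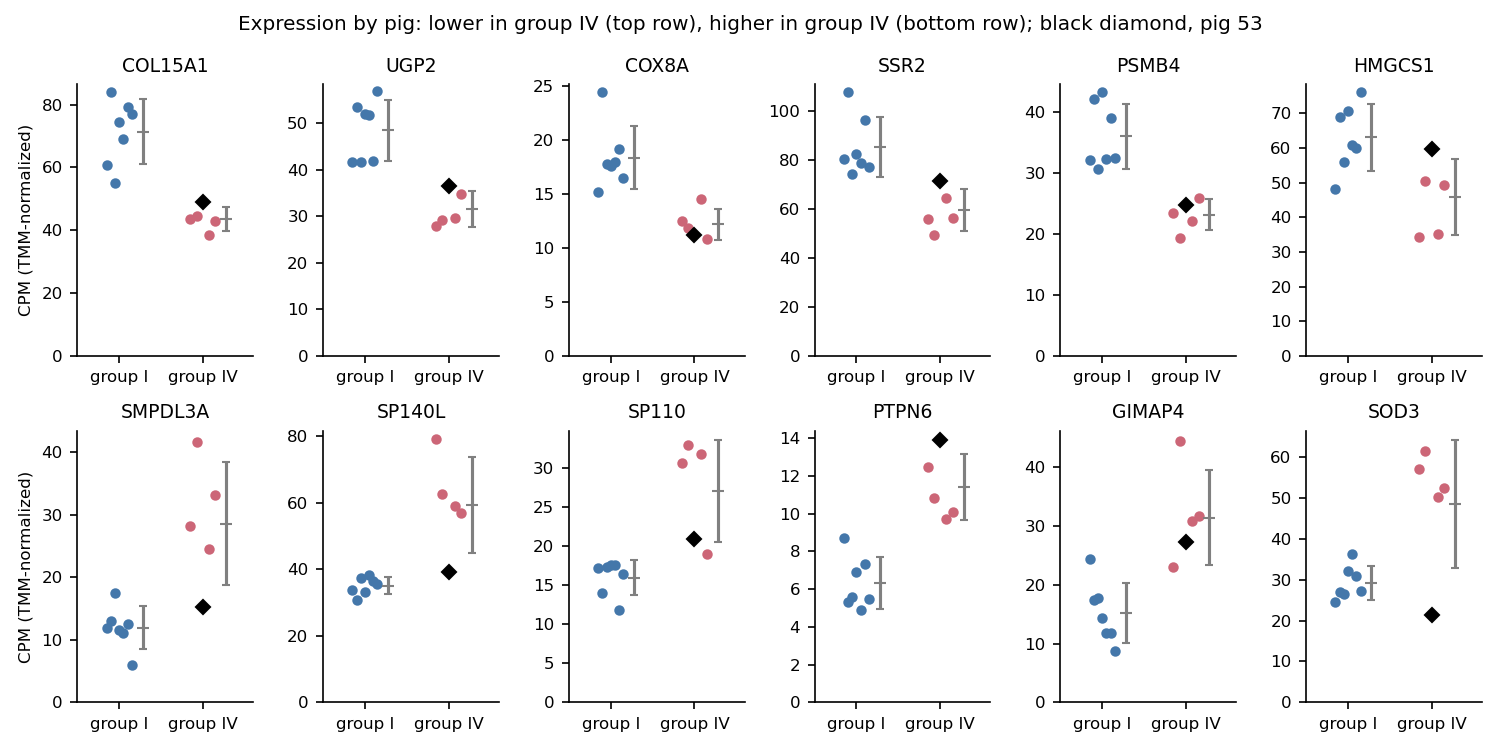
Expression in CPM (y axis, linear from 0) of 6 genes lower (top row) and 6 genes higher (bottom row) in group IV, one point per pig, with 7 pigs of group I in blue, group IV in red and pig 53 as a black diamond. Grey bars are the mean and SD, and COL15A1 is ENSSSCG00000029421. Pig 53 lies with its group for COL15A1, COX8A, PSMB4 and PTPN6 and below every control pig for SOD3, at 21.4 CPM.

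In a list that joins MHC class I genes with genes of the interferon response, most members were higher in group IV. Of 16 tested, 9 were higher and 1 was lower (STAT2) at an unadjusted *p* under 0.05, beside 8.22% and 5.98% of all genes, and the median log2 fold change was 0.55. Among the 9, SLA-1 was the only class I gene. SP140L and SP110 encode nuclear body proteins that interferon can induce. SP140L ranged from 30.9 to 38.4 CPM in group I with a median of 35.5 and was 79.2, 62.7, 39, 59 and 56.9 CPM in the group IV pigs, with pig 53 just above the highest control. Its log2 fold change was 0.77 ± 0.14 (edgeR adjusted *p* = 0.135), and without pig 53 SP140L rose by 0.89 (adjusted *p* = 0.00782).

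SP110 was 30.7, 33, 21, 31.8 and 19 CPM in group IV and at most 17.6 CPM in group I. It rose by 0.85 without pig 53 (edgeR adjusted *p* = 0.0351), with 0.77 ± 0.16 when pig 53 was kept (adjusted *p* = 0.135). IRF2, a transcription factor of the interferon response, measured 28.3 ± 3.34 and 40.5 ± 6.61 CPM without overlap (0.53 ± 0.12, adjusted *p* = 0.135). SLA-1, a class I heavy chain, belongs to a multigene family and its count is uncertain (0.83 ± 0.29, adjusted *p* = 0.22). The antiviral genes MX1 and MX2 leaned on 1 animal. Pig 49 had 109 and 111 CPM, and the highest of the other group IV pigs had 27.6 and 47.5 CPM. Without pig 49 the log2 fold change of MX1 was 0.36 in place of 1.07 and that of MX2 was 0.50 in place of 0.92. Of the 13 members not on the study's list 6 were higher and 1 was lower. With the share of reads outside genes as covariate 3 of 16 were higher, SP140L, SP110 and IRF2.

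Markers of leukocytes in general were higher in 6 of 8 cases and lower in 0 (median log2 fold change 0.80). PTPN6, a phosphatase of blood cells, ranged from 4.9 to 8.69 CPM in group I with a median of 5.56 and was 12.5, 10.8, 13.9, 9.69 and 10.1 CPM in the group IV pigs. The groups did not overlap and pig 53 was the highest (log2 fold change 0.85 ± 0.18, edgeR adjusted *p* = 0.135). ARHGAP30, which acts on small GTPases in blood cells, measured 10.4 ± 2.45 and 21.7 ± 6.31 CPM, also without overlap (1.05 ± 0.21, adjusted *p* = 0.135). PTPRC, the common leukocyte antigen CD45, measured 41.0 ± 10.1 and 62.9 ± 11.2 CPM (0.62 ± 0.17, adjusted *p* = 0.155). GIMAP4, a GTPase of lymphocytes, measured 15.2 ± 5.18 and 31.4 ± 8.03 CPM (1.04 ± 0.22, adjusted *p* = 0.135). It was 1 of only 2 lymphocyte markers that could be tested. Without pig 53, ARHGAP30, RCSD1 and GIMAP4 rose by 1.17, 0.88 and 1.09 (adjusted *p* = 0.0297, 0.0401 and 0.0469). The summed leukocyte markers overlapped between the groups, at 96 to 232 CPM in group I and 178 to 360 CPM in group IV. ARHGAP30, PTPN6, RCSD1 and PTPRC were on the study's list, as was GIMAP4, and of the 4 leukocyte markers that were not, 2 were higher (LCP1 and LCP2). Only 3 of 8 leukocyte markers were higher with the share of reads outside genes as covariate, PTPN6, ARHGAP30 and PTPRC.

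Macrophage markers were higher in 3 of 8 cases with pig 53 (VSIG4, C1QC and C1QA) and in 1 of 8 without it (CD68). Their sum ran from 49.4 to 209 CPM in group I and from 106 to 264 CPM in group IV, and pig 53 was the highest of all 12 pigs. VSIG4, a complement receptor of macrophages, was 9.24, 10.1, 10.7, 3.94 and 7.68 CPM in the group IV pigs and 0.714 to 8.68 CPM in group I, with a median of 4.06. Its log2 fold change was 1.01 ± 0.42 (edgeR adjusted *p* = 0.301). C1QC, a chain of the first complement component, had 1.01 ± 0.43 with pig 53, which stood at 66.6 CPM, and 0.63 without it (adjusted *p* = 0.308 and 0.457). The complement list of 15 tested genes also holds C1QTNF9 and C1QTNF6, relatives of C1q that are not complement components. In it 4 were higher (C1QTNF9, C5AR1, C1QC and C1QA) and 1 was lower (C1QTNF6), with a median log2 fold change of 0.75. C1QC and C1QA are also counted as macrophage markers above. Without pig 53 the counts were 2 and 2 and the median was 0.32, and with the share of reads outside genes as covariate 7 were higher and 0 were lower. Several complement proteins are made mainly by the liver, and the summed complement genes were highest in pig 53, at 965 CPM, as were the liver-type genes described below, at 1791 CPM. Their part in the complement counts was not tested. C5AR1, the receptor of the anaphylatoxin C5a, had 0.99 ± 0.31, C1QTNF9, an adipokine of the C1q family, had 1.07 ± 0.27, and its relative C1QTNF6 had -0.82 ± 0.30 (adjusted *p* = 0.196, 0.135 and 0.24).

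MS4A2, the mast cell chain of the IgE receptor, was the 1 of 3 mast cell markers that was higher. It was 64.2, 50.9, 47.1 and 52.7 CPM in pigs 49, 52, 53 and 54 and 20.4 CPM in pig 55, against 8.1 to 53.9 CPM in group I (log2 fold change 0.90 ± 0.38, edgeR adjusted *p* = 0.304). Genes of inflammatory cytokines and their receptors were higher in 1 of 20 cases (IKBKG, the regulatory subunit of the IκB kinase) and lower in 3, which were the receptors OSMR, IL1R1 and TNFRSF1A, with a median of -0.18. OSMR, the receptor of oncostatin M, ranged from 32.5 to 80.5 CPM with a median of 68.2 in group I and from 30.4 to 37.9 CPM in group IV (-0.82 ± 0.22, adjusted *p* = 0.15). Group IV was thus narrow and at the low end of a wide control range.

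Tight junction and cell cortex genes were higher in 13 of 21 cases and lower in 0, with a median log2 fold change of 0.39. Of these members 10 were on the list of DEGs that the study chose on the same pigs, so their direction is no independent evidence. Among the other 11, 3 were higher, with a median of 0.20. OCLN, the occludin of tight junctions, ranged from 14.8 to 29.3 CPM in group I with a median of 24.5 and was 46.7, 51.9, 26.6, 43.6 and 28.6 CPM in the group IV pigs. Pigs 53 and 55 lay within the control range (log2 fold change 0.83 ± 0.22, edgeR adjusted *p* = 0.15). GNAI2, an inhibitory G protein subunit, measured 92.3 ± 17.5 and 144 ± 22.2 CPM, and it rose by 0.72 without pig 53 (adjusted *p* = 0.0351). NUMA1, which anchors spindles at the cell cortex, rose by 0.83 and FNBP1L, which bends membranes, by 0.70 in the same fit (adjusted *p* = 0.037 and 0.0393). In edgeR, GNAI2, NUMA1 and FNBP1L were no DEGs with pig 53. TLN2, a talin that ties integrins to actin, had 0.57 ± 0.13 at ENSSSCG00000025668 and -0.04 ± 0.11 at ENSSSCG00000024088. The second value was above 0 without pig 52 and with the share of reads outside genes as covariate. With that covariate 3 of 21 were higher (GNAI2, TLN2 and MAGI1).

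Endothelial markers were higher in 4 of 10 cases (NOTCH4, PCDH12, ROBO4 and ERG), with a median of 0.28. Of the 10, 2 were on the list of DEGs that the study chose on these pigs. Among the other 8, 2 were higher and 0 were lower, with a median of 0.21. Holding the share of reads outside genes as covariate left 2 higher (NOTCH4 and PCDH12) and 1 lower (TEK, the angiopoietin receptor). NOTCH4, an endothelial Notch receptor, ranged from 15.9 to 30.6 CPM in group I and was 38.7, 42.3, 37, 40.3 and 40.8 CPM in the group IV pigs, without overlap (log2 fold change 0.76 ± 0.18, edgeR adjusted *p* = 0.135). PCDH12, a protocadherin of endothelium, measured 5.10 ± 1.45 and 9.39 ± 2.39 CPM without overlap (0.87 ± 0.23, adjusted *p* = 0.146). The sum of the 10 markers overlapped between the groups, at 613 to 1204 CPM in group I and 941 to 1222 CPM in group IV.

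**Figure D4:**
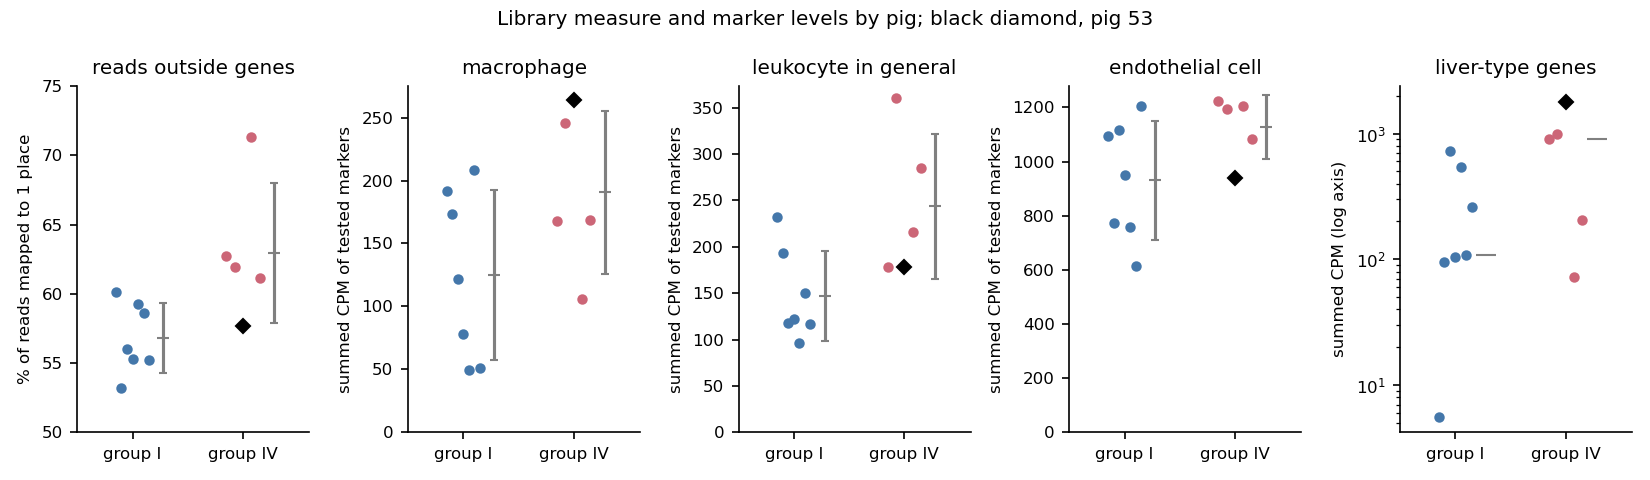
One point per pig for group I (7 pigs, blue) and group IV (5 pigs, red, with pig 53 as a black diamond). The first panel gives reads outside genes in % of reads mapped to 1 place (axis from 50%), the other panels but the last the summed CPM of tested macrophage, leukocyte and endothelial markers, and the last the summed CPM of liver-type genes on a log axis. Grey bars are mean and SD, and in the last panel the median. Pig 53 has the lowest share of reads outside genes in group IV, 57.7%, and the highest macrophage and liver-type sums, 264 and 1791 CPM.

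Chromatin and transcription regulators were higher in 15 of 25 cases, ZEB1 at both its identifiers, and lower in 2 (TAF4B and CDK9), with a median of 0.36. Of the 25, 11 had been chosen by the study on these pigs. Among the other 14, 6 were higher and 0 were lower, with a median of 0.19. In the fit with the share of reads outside genes as covariate, 5 of 25 were higher (CHD7, EID1, SMARCA2, SOX6 and ANKRD11), TAF4B and CDK9 were lower, and the median was 0.20. CHD7, a chromatin remodeller, ranged from 43.8 to 64.2 CPM with a median of 45.7 in group I and was 77.2, 78.7, 63.5, 90.2 and 95.3 CPM in group IV. It rose by 0.73 without pig 53 (edgeR adjusted *p* = 0.0338) and had 0.65 ± 0.14 with it (adjusted *p* = 0.135). ANKRD11, which recruits histone deacetylases, rose by 1.07 without pig 53 (adjusted *p* = 0.0297) and was no DEG with it. Pig 53 stood at 26.2 CPM beside a control median of 25.2 CPM. ZEB1, a repressor of epithelial genes, had log2 fold changes of 0.42 ± 0.16 at ENSSSCG00000011025 and 0.59 ± 0.15 at ENSSSCG00000020757 (adjusted *p* = 0.251 and 0.137). SOX6, a transcription factor, measured 4.73 ± 0.833 and 8.47 ± 2.22 CPM without overlap (0.85 ± 0.20, adjusted *p* = 0.135). TAF4B, a subunit of the general factor TFIID, ranged from 17.1 to 23.9 CPM in group I and was 14.2, 12.4, 9.92, 14.5 and 13.7 CPM in the group IV pigs, with pig 53 the lowest (-0.69 ± 0.14, adjusted *p* = 0.135). Among the genes of smallest *p* outside the lists, the histone H3.3 gene H3F3A measured 158 ± 31.5 and 105 ± 7.02 CPM without overlap (-0.58 ± 0.13, adjusted *p* = 0.135).

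Splicing factors were higher in 7 of 17 cases, HNRNPH3 at both its identifiers, and lower in 0 (median 0.22). Of them 4 were on the study's list, and among the other 13, 3 were higher with a median of 0.06. ARGLU1, a splicing modulator, was 302, 247, 379 and 139 CPM in pigs 49, 52, 54 and 55 and 118 CPM in pig 53, beside a control median of 121 CPM. ARGLU1 and HNRNPH3 (ENSSSCG00000020688) rose by 1.11 and 0.78 without pig 53 (edgeR adjusted *p* = 0.0351 and 0.0297), and DHX16 rose by 0.87 (adjusted *p* = 0.0485). With pig 53 none of them was a DEG, and DHX16 had 0.78 ± 0.19 (adjusted *p* = 0.135). ZRSR2, which recognises splice sites, measured 8.49 ± 3.4 and 17.3 ± 5.53 CPM (log2 fold change 1.00 ± 0.27 with pig 53, adjusted *p* = 0.155). With the share of reads outside genes as covariate 0 of 17 were higher and the median was -0.00263. Cytosolic ribosomal protein genes were higher in 3 of 14 cases (RPS27, RPS16 and RPL27) and lower in 1 (RPL38), with a median of 0.02, near that of all genes. Such genes share reads with processed copies, so single values are uncertain.

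Proteasome genes were lower in 2 of 14 cases, PSMB4 and PSMA1. PSMB4, a subunit of the catalytic core, ranged from 30.6 to 43.2 CPM in group I and was 23.5, 19.4, 24.6, 22.1 and 25.9 CPM in the group IV pigs, all below the controls. It fell by 0.65 without pig 53 (edgeR adjusted *p* = 0.0465) and had -0.63 ± 0.13 with it (adjusted *p* = 0.135). In protein export and the endoplasmic reticulum 2 of 22 were lower (SSR2 and RPN2) and 2 were higher (the chaperones CALR and CANX), with a median of -0.02. Over all genes tested 5.98% were lower and 8.22% higher. SSR2, of the translocon-associated complex, measured 85.3 ± 12.2 and 59.4 ± 8.52 CPM without overlap. SSR2 fell by 0.59 without pig 53 (adjusted *p* = 0.0456) and was no DEG with it.

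**Figure D5:**
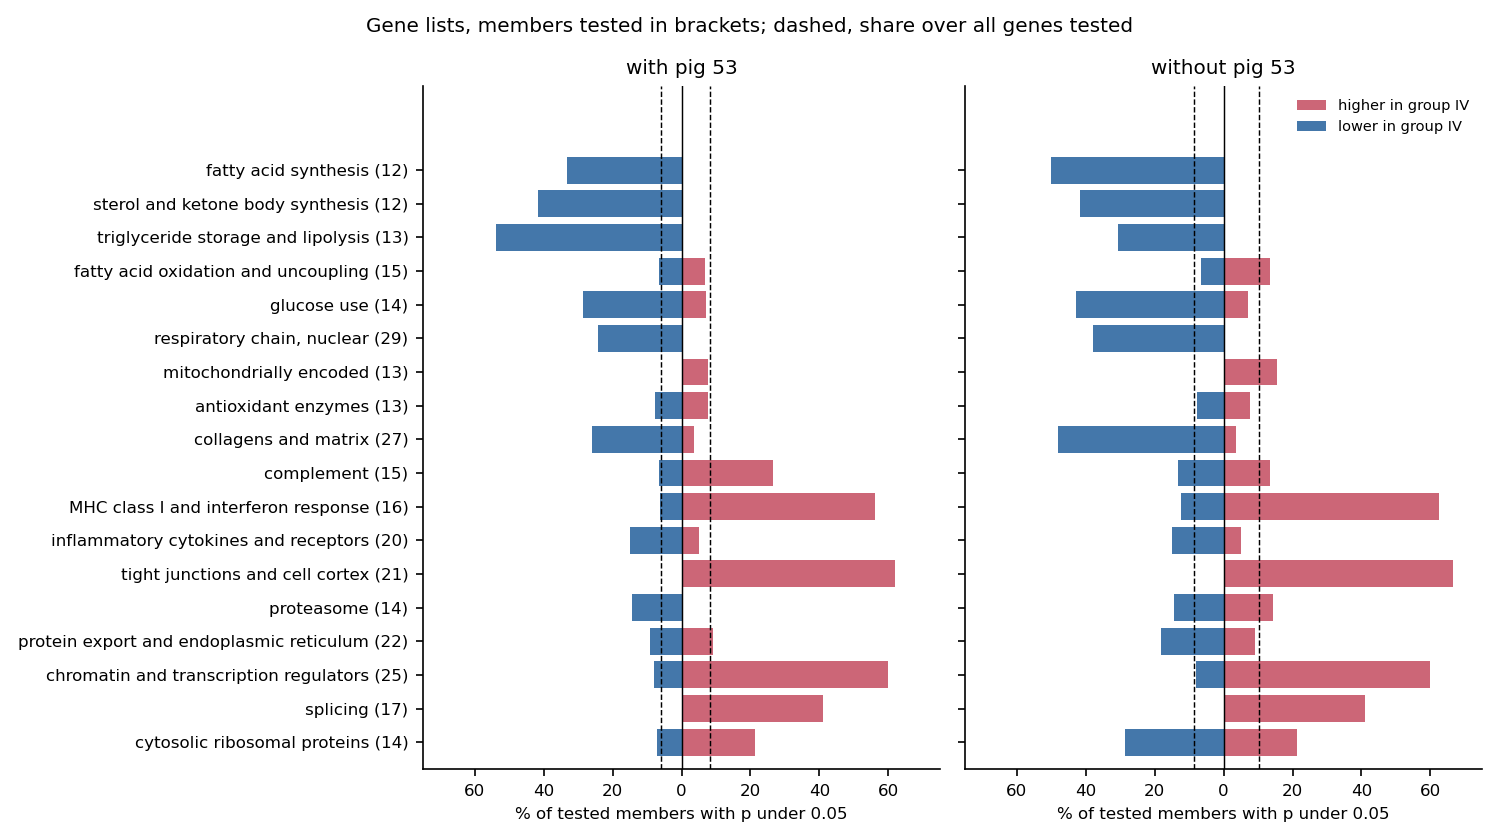
Share of tested members (x axis, %) with an unadjusted edgeR *p* under 0.05 in each of 18 gene lists (y axis, members tested in brackets), with pig 53 (left) and without it (right). Red bars are members higher and blue bars members lower in group IV, and dashed lines are the shares over all genes tested, 8.22% and 5.98% with pig 53. A gene with 2 identifiers, such as FASN, ZEB1 or HNRNPH3, counts as 2 members. Lower members of the matrix list go from 7 to 13 of 27 when pig 53 is left out.

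Genes that belong to none of these lists also stood among those with the smallest *p*. TMEM150C, a membrane protein, was at most 33.4 CPM in group I and was 50.7, 51.1, 34.6, 45.1 and 46.6 CPM in the group IV pigs. It rose by 0.78 without pig 53 (edgeR adjusted *p* = 0.0163) and was no DEG with that pig. SMPDL3A, a secreted phosphodiesterase, ranged from 5.95 to 17.5 CPM in group I and was 28.2, 41.6, 15.2, 24.5 and 33.1 CPM in group IV, so that only pig 53 fell within the control range. SMPDL3A rose by 1.42 without it (adjusted *p* = 0.0163) and was no DEG with it. CFAP53, a cilium protein, measured 2.05 ± 0.366 and 5.76 ± 2.65 CPM, which is only a few reads in each control pig. KIF3C, a kinesin, was higher (0.90 ± 0.19), while SERINC2, a serine carrier, KLHL8, a ubiquitin ligase adaptor, TMEM183A, a membrane protein, and DMXL1, which binds the vacuolar proton pump, were lower, at -0.71, -1.06, -0.64 and -0.42 (adjusted *p* = 0.135 for each of these 5). RTN3, which shapes the endoplasmic reticulum, had -0.42 ± 0.11, and ALAS1, the first enzyme of haem synthesis, had -0.46 ± 0.19 (adjusted *p* = 0.153 and 0.305).

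Pig 53 decided the call most for 10 genes, taken by how far their *p* fell when it was left out, so their values are a description. Of these 5 were higher in the other group IV pigs (ZNHIT6, SOD3, TSPYL2, RGS1 and CEP128) and 5 were lower, RCN1, P4HA2, LONRF3 and IGFBP6 among them. ZNHIT6, which helps to assemble small nucleolar particles, was 47.2, 42.6, 43 and 37.7 CPM in pigs 49, 52, 54 and 55 and 20.5 CPM in pig 53, inside the control range of 16.9 to 24.9 CPM. RGS1, a brake on G protein signals in leukocytes, was 18 to 31.2 CPM in those 4 pigs and 3.36 CPM in pig 53, below the lowest control of 4.05 CPM. CEP128, a centriole protein, was read at ENSSSCG00000027438, where pig 53 had 1.76 CPM.

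Among the lower genes, IGFBP6, which binds insulin-like growth factors, was 6.66 to 16.7 CPM in those 4 pigs and 40.6 CPM in pig 53, with controls from 19.1 to 51.2 CPM. P4HA2, a collagen prolyl hydroxylase, and RCN1, a calcium-binding protein of the endoplasmic reticulum, stood at 49.8 and 127 CPM in pig 53, above the control medians of 42.1 and 117 CPM. Pig 53 was therefore on the control side or beyond it at all 3 of these genes.

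Liver-type genes, which mark hepatocytes, were higher in 7 of 8 cases with pig 53 and in 3 of 8 without it (AZGP1, ARG1 and APOA4), with medians of 1.89 and 1.29. Of the 8, 2 were on the study's list, and among the other 6, 5 were higher with pig 53, with a median of 1.75. With the share of reads outside genes as covariate 7 of 8 were higher. Their sum ran from 5.61 to 733 CPM in group I. In the group IV pigs it was 899, 988, 1791, 71.7 and 206 CPM, so the groups overlapped and pig 53 was the highest. Most of it was ALB, serum albumin, at 837, 902, 1679, 48.1 and 179 CPM in group IV and 3.26 to 695 CPM in group I (log2 fold change 1.58 ± 0.86, edgeR adjusted *p* = 0.416). ARG1, the arginase of the urea cycle, was 13, 10.8, 7.36, 2.72 and 1.68 CPM in group IV and 0.362 to 2.78 CPM in group I, and APOA4, an apolipoprotein, was 10.5, 14.7, 9.28, 1.21 and 2.88 CPM and 0 to 3.64 CPM. Pigs 49, 52 and 53 were high at all of these, and pigs 54 and 55 lay within the control range. CYP2E1, a liver oxidase, followed the same order with 29 CPM in pig 53. AZGP1, which fat also makes, was highest instead in pigs 52, 54 and 55, with 11.9, 14.8 and 10.3 CPM, and rose by 2.30 without pig 53 (adjusted *p* = 0.0309). ARG1 rose by 2.51 in that fit (adjusted *p* = 0.0489), and neither AZGP1 nor ARG1 was a DEG with pig 53. The source of these transcripts was not tested.

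Of the other cell type markers, skeletal muscle genes varied widely in both groups, from 21.6 to 1906 CPM in group I and from 33.4 to 1381 CPM in group IV, with 0 of 4 higher or lower. Skin markers (2 tested) summed to 2.17 to 8.57 and 3.84 to 13.1 CPM and red blood cell markers (2 tested) to 11.8 to 37.4 and 14.2 to 32.7 CPM, with 0 of 2 higher or lower in each. KRT1 and MYH11 had no count in any of the 12 pigs.

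To set apart the fat source, group IV was compared with group II (+cDDGS+rapeseed oil) and group III (+cDDGS+beef tallow), which also received cDDGS. No DEG was found in either by edgeR. In the comparison with group II, 209 genes were higher (2.08% of 10062) and 293 lower (2.91%) at an unadjusted *p* under 0.05, and with group III 235 were higher (2.3% of 10230) and 186 lower (1.82%). Together these were 502 genes against group II and 421 against group III, where 5% of the genes tested is 503 and 512. Neither count exceeded that level. DESeq2 called 2 DEGs against group II and 0 against group III. Among 131 identifiers of the genes named here, 6 were higher and 7 lower against group II and 16 and 9 against group III at that level, with no adjusted *p* under 0.967. Many of these genes were named for their difference between the same group IV pigs and group I. Their counts therefore cannot be set against the shares over all genes.

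H3F3A and TMEM183A, lower than in group I, had log2 fold changes of -0.49 and -0.57 against group II. C1QA, higher than in group I, had -0.77 against group II, and ACLY, lower than in group I, had 1.02. The leukocyte genes GIMAP4 and PTPN6 had -0.17 and -0.09 against group II and 1.01 and 0.89 against group III. COL15A1 (ENSSSCG00000029421) had -0.28 and -0.24. FASN had 0.29 and 0.34 at its pair of identifiers against group II and 0.21 and 0.26 against group III, the opposite sign to its difference from group I. None of these passed adjustment over all genes.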

How the data were processed

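Backfat RNA of 23 pigs was sequenced, and the 12 pigs of group I and group IV were analysed, with groups II and III as reference. The members, gene lists and tests were chosen with earlier results of these data known. The authors isolated total RNA, depleted ribosomal RNA, sequenced single-end reads of stranded libraries, used FLEXBAR for trimming and TopHat for mapping to the Ensembl pig genome, and made per-gene tables with HTSeq, which carry Ensembl identifiers. These tables hold raw counts as deposited, with 25322 gene rows and 5 summary rows per pig, which were kept out of library sizes and tests. The strand setting of the counting and how repeat runs were merged are not given in the sources used here. Reads outside genes may include unspliced RNA or reads of a gene's opposite strand.

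Counts of the groups compared were fitted in R 4.3.3 with edgeR 4.0.16 (TMM, filterByExpr, glmQLFit and glmQLFTest) and Benjamini-Hochberg adjustment over all genes tested. Printed SEs are the absolute log2 fold change divided by the root of the F statistic. CPM are scaled over all 23 pigs. Library measures and single genes were compared by exact two-sided permutation on the measure or on log2(CPM + 0.5). The test was checked on simulated counts. Alternatives were DESeq2 1.42.0, with and without shrunken fold changes, limma-voom (limma 3.58.1) with quality weights, median-ratio normalization, no low-count filter, a minimum of 10 counts in each pig, sex, RNA integrity number or both as covariates, the share of reads outside genes as covariate, all 23 pigs in 1 fit, dropping identifiers above 2% of counts, no fold-change limit, an adjusted *p* of 0.1 and leaving out each pig. Fits of DESeq2, limma-voom and the covariate without pig 53 were added after seeing the data.

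Symbols came from a reference table of gene names (11804 identifiers) and otherwise from the study's tables (83 more), and 8 conflicted. Named genes were the 12 with the smallest *p* per direction, genes the study discusses for this comparison, at most 4 per list, PTPRC, and the 10 whose *p* fell most without pig 53. ALB, SCD, SERPINH1, SPARCL1, STAT2, MX1, SLA-1, CD68, FDPS, PNPLA2, DGAT1, GYS1, UQCRFS1, CDK9, FADS1, MAGI1, LCP1, LCP2, TEK, ND3, EID1, SMARCA2, KRT1 and MYH11 were named after their values were seen. Some genes that this rule names are not reported here. Skeletal muscle, skin and red blood cell markers are given as sums only. Lists were described by counts and medians, without a set test. No sequences or coordinates were used. Figures were drawn with matplotlib 3.10.9.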

Additional observations from a re-analysis of the deposited data

Results flagged for a closer look

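Single pigs far from the rest of their group were looked for by the gap to the nearest pig against the whole range. Of 274 gene and library values of groups I and IV, 10 were flagged (3.65%), where chance flags about 1 in 20. The genes were those named here, some picked for their change without pig 53 and some named after their values were seen. The flagged share is therefore no measure against chance. In pig 53 the flagged values were ZNHIT6 at 20.5 CPM, SOD3 at 21.4 CPM, RGS1 at 3.36 CPM and the mitochondrial ND3 at 1036 CPM, all low for group IV. In pig 54 they were KLHL8 at 20.6 CPM, high for group IV, and PLIN4 at 222 CPM, low for it. MX1 stood at 109 CPM in pig 49, the highest of its group, and MS4A2 at 20.4 CPM in pig 55, the lowest. In group I, ALB stood at 3.26 CPM in pig 1 and SLA-1 at 13.8 CPM in pig 8, both the lowest of their group.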

How the results depend on the processing

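The count of DEGs was 0 in the main comparison and under every alternative but these: 154 with DESeq2, 150 with DESeq2 and shrunken fold changes and, with pig 53 left out, 496 with DESeq2 and 286 with limma-voom. Leaving out 1 pig at a time gave 0 to 116 DEGs, the 116 without pig 53. Genes higher at an unadjusted *p* under 0.05 numbered 315 with the share of reads outside genes as covariate and 342 with it and without pig 53 (854 in the report), and leaving out 1 pig gave 620 to 1065. Lower genes numbered 216 and 285 with that covariate, and 951 with DESeq2 and 951 with limma-voom without pig 53 (621 in the report), with 424 to 891 when 1 pig was left out. Against group II, DESeq2 called 2 DEGs. The cause was not tested.

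Of 132 identifiers named (the 131 compared with groups II and III and ENSSSCG00000002410, a second one of CEP128), 6 changed sign, in 15 of 3549 refitted values. With the share of reads outside genes as covariate, with and without pig 53, ACACA had 0.00547 and 0.0303, ACLY 0.20 and 0.57, SCD 0.15 and 0.40 and PDGFRB (ENSSSCG00000022741) 0.085 and 0.22. TLN2 (ENSSSCG00000024088) had 0.0106 with it, and -0.11 to 0.0418 when 1 pig was left out, the highest without pig 52. FADS1 had -0.16 with limma-voom, -0.10 to 0.30 when 1 pig was left out (-0.09 without pig 52, -0.10 without pig 53), and -0.10 with DESeq2 and -0.32 with limma-voom without pig 53. No paired analysis was possible because pig numbers are not shared between the groups. With 3006222 to 5261962 gene counts per pig, genes under a few CPM rest on few reads.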
